A study of Homo sapiens with 2 samples.

Results

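Genes of G protein and cyclic nucleotide signalling were followed between cisplatin-resistant and parental SBC5 cells. They comprised receptors named GPR, the alpha, beta and gamma subunits of heterotrimeric G proteins, receptor kinases and arrestins, RGS proteins, adenylyl cyclases, phosphodiesterases (PDE), the subunits of protein kinase A and the A-kinase anchoring proteins (AKAP). Members were chosen by gene symbol alone, through name prefixes such as RGS, GNA, GPR, ADCY and PDE, and the rule itself uses no measured value, although it was written with earlier results of these data known. Of 12494 names in the deposited table, 105 matched, and 104 of them were among the 12405 genes compared, those with at least 1 FPKM in either library. FPKM is a fragment count scaled to transcript length and library size, so it can be set side by side between genes. GPRASP1, which sorts internalised receptors, was left out of the comparison at 0.634 FPKM in the parental line and 0.561 FPKM in the resistant line.

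SBC5 is an established human line of small cell lung cancer, an aggressive neuroendocrine tumour. The parental line was compared with a cisplatin-resistant derivative, obtained by passing cells through 1, 2, 4 and then 20 µg/ml of that DNA-crosslinking drug. Both were kept in RPMI medium with fetal bovine serum, and the labels do not say whether the derivative is 1 clone or whether drug was present when RNA was taken. Each line was represented by 1 stranded library of polyadenylated RNA, so no difference given here has a replicate check, no test was run, and the values describe these 2 libraries.

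When a ligand binds its receptor, the G protein alpha subunit exchanges GDP for GTP and separates from the beta and gamma subunits. Different alpha subunits raise or lower cyclic AMP through adenylyl cyclase or activate phospholipase C. RGS proteins speed GTP hydrolysis and so shorten the signal, phosphodiesterases break down cyclic AMP and cyclic GMP, and cyclic AMP releases the catalytic subunits of protein kinase A from regulatory subunits that A-kinase anchors hold at fixed places in the cell.

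RGS4 and RGS5 were the members with the lowest, and RGS20 and GPR63 those with the highest, ratio of resistant to parental level once 1 FPKM was added to each. Without that addition the scarce transcripts GPR61 and GPR158 lay beyond them. A difference was counted when the log2 ratio, taken with that addition as resistant over parental, was at least 1 or at most -1, which is 2-fold on that scale. By this rule 5 of 104 members were higher in the resistant library, 4.81% against 3.28% of all 12405 genes compared. Another 9 were lower, 8.65% against 2.70% of all genes. These higher members were RGS20, GPR63, GNAL, GPR160 and GPR158. The lower ones were RGS4, RGS5, RGS2, PDE3B, GPR61, PDE4B, AKAP6, PRKAR2B and AKAP13. The remaining 90 lay within 2-fold, 78 of them (75.0%) within 0.5 on the log2 scale, compared with 82.7% of all genes. The median log2 ratio of the members was -0.07 and that of all genes -0.04, so the module as a whole lay close to the rest of the table. In these bulk samples, fewer cells carrying a transcript and less of it per cell cannot be told apart.

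**Figure D1:**
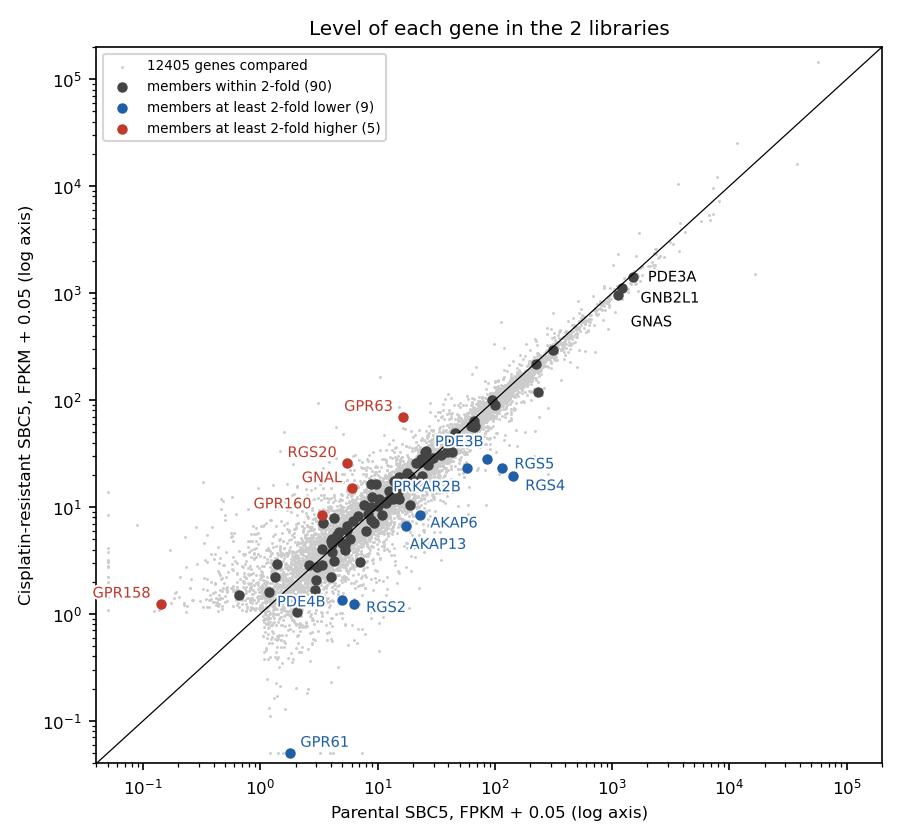
FPKM of each gene in parental (x) and resistant (y) SBC5 on log axes, after adding 0.05 so that values listed at 0 can be drawn. Grey points are the 12405 genes compared, dark points the 90 members within 2-fold, blue points the 9 lower and red points the 5 higher members; most members follow the diagonal, and RGS4 and RGS5 lie below it at over 100 FPKM in parental cells.

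All rows of the parental library added up to 1019555 FPKM and those of the resistant library to 1081047 FPKM, and how many fragments lay behind a value is unknown. Of the neuroendocrine markers of small cell lung cancer, 4 of 8 had a row, with summed FPKM of 29.4 and 30.3. DLL3, a Notch ligand of these tumours, had 19.3 FPKM in the parental line and 18.9 FPKM in the resistant line. YAP1, a transcriptional coactivator that marks a form with few neuroendocrine genes, had 76.6 and 84.7 FPKM, and of the other markers of that form AJUBA had 24.0 and 30.9 FPKM and VIM 389 and 242 FPKM (log2 ratio -0.68). RGS4 and RGS5 are also known from pericytes and smooth muscle, of whose markers 2 of 10 had a row, NOTCH3 and CSPG4, summing to 45.4 FPKM in the parental line and 39.3 FPKM in the resistant line, while the defining markers ACTA2 and MYH11 were not analysed here. Of 5 fibroblast markers 2 had a row, and they went opposite ways: PDGFRA, a growth factor receptor, had 48.0 and 10.1 FPKM (log2 ratio -2.14), and COL1A1, a collagen chain, 2.34 and 3.85 FPKM (0.54). Of 6 haematopoietic markers CORO1A had 26.1 and 16.8 FPKM and HBB 2.69 and 0.472 FPKM, and the 4 endothelial markers were not analysed here. The part of other cell types in the results that follow was not tested.

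Of 24 receptors, 3 were higher, 1 was lower and the median log2 ratio was -0.05. GPR63, a receptor of the brain for which lipid ligands have been proposed, had 16.5 FPKM in the parental line and 69.2 FPKM in the resistant line. This was 4.20-fold higher (log2 ratio 2.00), the 75th highest of all genes, and it stood at 1.79 with a pseudocount of 5. GPR63 lies at chr6:96794126-96837463 on the minus strand in hg38, and its 10 nearest compared genes had a median of -0.04. It was thus the receptor with both a high level and a large difference. GPR160, an orphan receptor at chr3:170037929-170085403, had 3.30 and 8.43 FPKM (1.13), and one of the genes near it, MECOM, a transcription factor gene, had a log2 ratio of 3.82. GPR158, a receptor of neurons that binds RGS proteins, lies at chr10:25174802-25602226 and had 0.0921 and 1.19 FPKM. Its ratio equals 1 to 13 once the worth of a read in each library is allowed for, so it may rest on few reads, and its log2 ratio of 1.01 with a pseudocount of 1 became 0.28 with 5. GPR61, an orphan receptor at chr1:109539872-109548406, had 1.74 FPKM in parental cells and was listed at 0 in resistant cells, from a row with no strand. At such levels GPR158 and GPR61 could be compared only through the library in which they were the higher, and that alone required a difference.

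The receptor with the highest mean, GPR75, shares its row with the neighbouring gene ASB3, and its own reads cannot be told apart there. That joined row had 233 FPKM in the parental line and 119 FPKM in the resistant line (log2 ratio -0.96), just inside the limit. GPR153 had 66.6 and 62.9 FPKM. GPR176, a receptor of the circadian clock in the brain, had 3.96 and 2.14 FPKM (-0.66). Toward higher values, GPR173 stood at 1.34 and 2.87 FPKM (0.73) and GPR37 at 0.605 and 1.45 FPKM (0.61). GPR3, which keeps cyclic AMP up without a ligand, had 12.1 and 11.3 FPKM, and 15 of the 24 receptors lay within 0.5 on the log2 scale. No common direction was seen among receptors, with 11 above and 13 below 0.

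Among the 11 G alpha genes GNAL alone passed the limit. It encodes the olfactory form of the stimulatory alpha subunit and lies at chr18:11688956-11885685. GNAL had 6.05 FPKM in the parental line and 14.8 FPKM in the resistant line (log2 ratio 1.17), which was inside the limit, at 0.84, with a pseudocount of 5. GNAS, the widely expressed stimulatory subunit, had 1125 and 957 FPKM (-0.23) and made up 79.8% of the summed G alpha FPKM in parental and 76.7% in resistant cells. GNAL was therefore a small share of the stimulatory transcripts in both libraries. The inhibitory subunits differed little: GNAI2 had 66.2 and 56.2 FPKM, GNAI3 94.3 and 99.2 FPKM and GNAI1 13.8 and 17.3 FPKM. GNAQ and GNA11, which activate phospholipase C, had 13.0 and 12.3 FPKM and 17.2 and 17.6 FPKM. GNA12 and GNA13, which form a subfamily of their own, moved apart within narrow bounds, with log2 ratios of 0.25 and -0.24.

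None of the 5 G beta genes, 6 G gamma genes and 5 receptor kinase and arrestin genes passed the limit. GNB1 and GNB2, the common beta subunits, had 312 and 296 FPKM and 225 and 216 FPKM, and summed G beta FPKM was 556 in parental and 534 in resistant cells. GNG5, the most abundant gamma subunit, had 101 and 90.1 FPKM. The gamma subunits farthest from 0 were GNG13, at 4.18 and 7.86 FPKM (log2 ratio 0.77), and GNG12, at 9.68 and 16.4 FPKM (0.70). ARRB2, which uncouples receptors from G proteins, had 26.6 and 24.8 FPKM, and GRK6, which phosphorylates active receptors, 23.5 and 26.4 FPKM. The subunits, kinases and arrestins of the G protein cycle thus lay within 2-fold in these libraries, apart from GNAL.

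**Figure D2:**
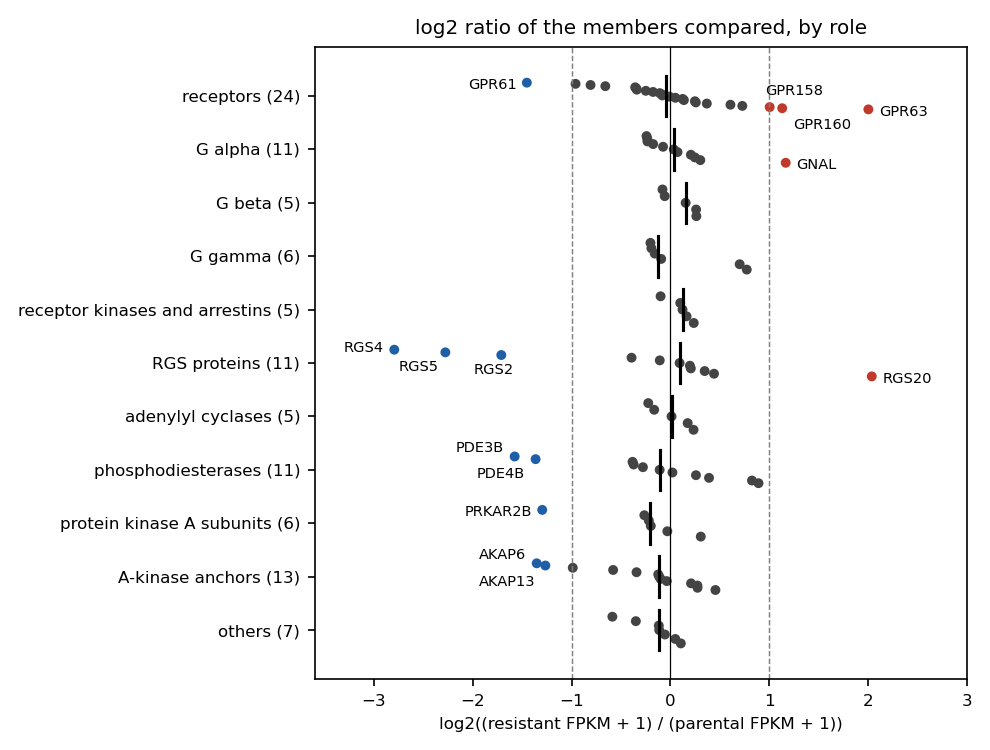
log2 ratio, resistant over parental FPKM with 1 added to each, of the 104 members compared, in rows by role with the number in brackets. Points are genes, black bars are medians and dashed lines mark 2-fold; the RGS proteins run from -2.79 for RGS4 to 2.04 for RGS20, while all G beta, G gamma, kinase, arrestin and cyclase genes lie between the dashed lines.

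With a pseudocount of 1, the 11 RGS genes held the 3 lowest log2 ratios of all members and also the highest. That order depended on the pseudocount. With 5, GPR63 stood above RGS20 (1.55). PDE3B (-1.46), PRKAR2B (-1.17), AKAP6 (-1.06), AKAP13 (-0.94) and GPR75 (-0.94) then stood below RGS2 (-0.85). With 0.1 the scarce GPR158 was highest and GPR61 lowest. RGS4, an RGS protein acting on inhibitory and Gq-type alpha subunits, had 142 FPKM in the parental line and 19.6 FPKM in the resistant line. That is 7.24-fold lower (log2 ratio -2.79), the 11th lowest of all genes compared, and with pseudocounts of 0.1 and 5 it stood at -2.85 and -2.58. RGS5, a close relative, had 115 and 22.9 FPKM, 5.02-fold lower (-2.28). RGS2, which acts mainly on Gq-type subunits, had 6.19 and 1.20 FPKM (-1.71), at a lower level than the other two, and its log2 ratio was -0.85 with a pseudocount of 5. In the opposite direction, RGS20, which acts on the Gz subunit, had 5.47 and 25.6 FPKM, 4.68-fold higher (2.04), the 67th highest of all genes. Its substrate GNAZ had 5.78 and 5.01 FPKM (-0.17).

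The other 7 RGS genes lay within 2-fold. RGS10 had 25.9 and 33.2 FPKM, RGS19 17.8 and 20.5 FPKM and RGS14 8.91 and 12.5 FPKM, with log2 ratios from 0.20 to 0.44. RGS16, the lowest of these, had 2.95 and 2.01 FPKM (-0.39). RGS4 and RGS5 together accounted for 76.8% of the summed RGS FPKM in parental and 28.6% in resistant cells. Their sum went from 257 to 42.4 FPKM, while the sum of the other 9 went from 77.5 to 106 FPKM, a ratio of 1.37. RGS20, 1 of these 9, went from 5.47 to 25.6 FPKM and made up most of that rise. In all, RGS transcripts summed to 334 FPKM in the parental line and 149 FPKM in the resistant line, and the median of the 11 genes was 0.09. The lower total lay in the most abundant genes, while 6 of the 11 had log2 ratios above 0.

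**Figure D3:**
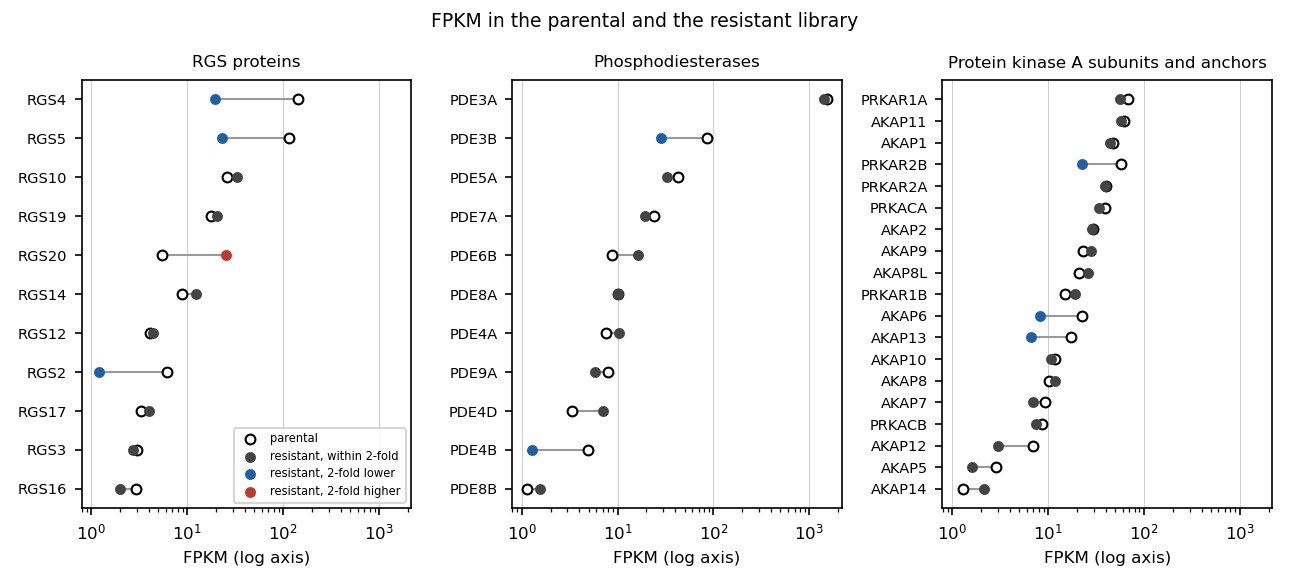
FPKM on a log axis of every RGS gene, every phosphodiesterase gene and every protein kinase A subunit and anchor gene, with open circles for parental and filled circles for resistant cells, joined by a line per gene. RGS4 and RGS5 lead the RGS genes in parental cells, while in resistant cells RGS10 (33.2 FPKM) and RGS20 (25.6 FPKM) stand above both.

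RGS4 and RGS5 lie next to each other on chromosome 1. RGS4 is at chr1:163068775-163076802 on the plus strand and RGS5 at chr1:163111121-163321791 on the minus strand in hg38, so their lowest coordinates are 42.3 kb apart. Of the 5 compared genes on each side of RGS4, RGS5 and C1orf110 were lower by the 2-fold rule. C1orf110, at -244 kb from RGS4, had 3.93 and 0.179 FPKM (log2 ratio -2.06). By lowest coordinate, the genes next to these 3 differed less. HSD17B7, a sterol enzyme gene at -278 kb, had a log2 ratio of -0.29. NUF2, a kinetochore gene, had 82.6 and 61.6 FPKM (-0.42), and its lowest coordinate, at 198 kb, falls within the span given for RGS5. The median of the 10 neighbours was -0.31. RGS2 lies farther along the same chromosome, at chr1:192809039-192812283 on the plus strand. Its nearest compared gene on the far side, UCHL5, a deubiquitinase gene at 203 kb, had 178 and 95.5 FPKM (-0.90), and all 5 genes on that side had log2 ratios below 0, out to KCNT2, a potassium channel gene at 3417 kb (-1.49). On the other side the nearest compared gene, MIR4426 at -92.7 kb, had 7185 and 9607 FPKM (0.42). Much farther out, PLA2G4A at -5980 kb was listed at 0 in the parental line and had 3.15 FPKM in the resistant line (2.05). PTGS2, the inducible cyclooxygenase, had 0.875 and 6.34 FPKM (1.97), at -6137 kb. Beyond it C1orf27 and TPR had log2 ratios of -0.13 and -0.20. The median of the 10 neighbours was -0.23. The other members past 2-fold had neighbours with medians from -0.17 for AKAP13 to 0.13 for GPR160.

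**Figure D4:**
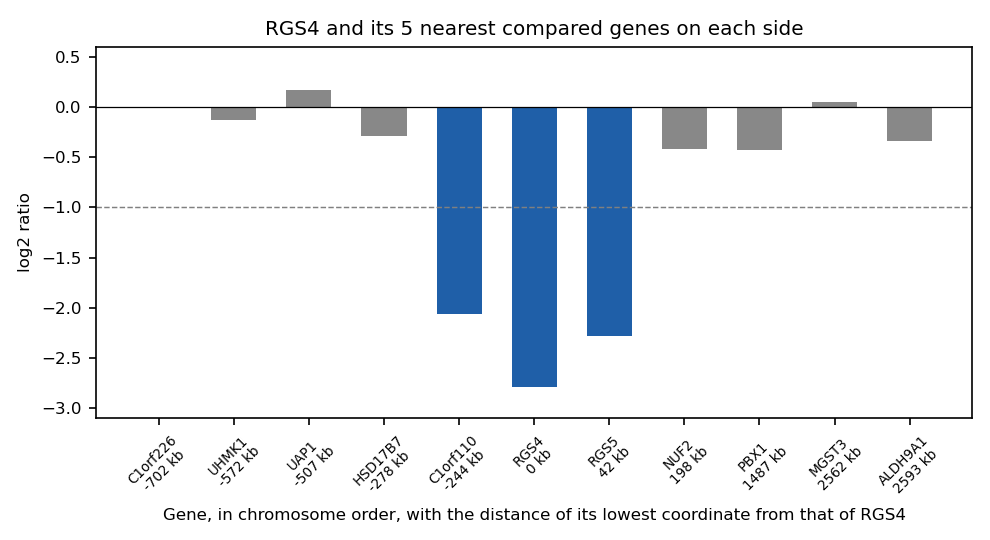
log2 ratio of RGS4 and the 5 nearest compared genes on each side, in chromosome order, with the distance of each gene's lowest coordinate from that of RGS4 under its name. Blue bars are genes at least 2-fold lower. C1orf110 (-2.06), RGS4 (-2.79) and RGS5 (-2.28) are adjacent in order of lowest coordinate, and the other 8 genes lie between -0.43 and 0.18.

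A promoter window for each of the 3 lowered RGS genes is shown because these genes moved in the same direction and cyclic AMP response elements are a known route from this pathway to transcription. Each window is the 250 bases before 1 RefSeq start on the gene's own strand in GRCh38.p14, with matches to the core TGACG of the element, read on either strand, in capitals. The windows are chr1:163068621-163068870 on the plus strand for RGS4, chr1:163321736-163321985 on the minus strand for RGS5 and chr1:192808789-192809038 on the plus strand for RGS2.
RGS4: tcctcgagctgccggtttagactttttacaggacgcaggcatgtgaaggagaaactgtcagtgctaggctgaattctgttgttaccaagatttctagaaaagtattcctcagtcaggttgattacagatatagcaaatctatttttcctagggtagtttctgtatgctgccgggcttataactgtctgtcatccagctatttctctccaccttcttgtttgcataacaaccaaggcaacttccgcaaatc
RGS5: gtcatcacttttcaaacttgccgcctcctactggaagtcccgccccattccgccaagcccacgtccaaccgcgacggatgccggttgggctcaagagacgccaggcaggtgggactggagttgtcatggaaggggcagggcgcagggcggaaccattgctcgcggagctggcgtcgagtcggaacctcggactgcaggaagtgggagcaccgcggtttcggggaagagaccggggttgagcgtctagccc
RGS2: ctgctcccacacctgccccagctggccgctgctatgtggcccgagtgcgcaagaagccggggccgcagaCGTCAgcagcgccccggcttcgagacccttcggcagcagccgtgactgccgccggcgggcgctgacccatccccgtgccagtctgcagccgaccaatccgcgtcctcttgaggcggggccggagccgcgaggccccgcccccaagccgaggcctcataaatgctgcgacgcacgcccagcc
The GC content was 42.8% for RGS4, 64.4% for RGS5 and 72.8% for RGS2. The RGS2 window held a single core, on the opposite strand and beginning 181 bases before the start, and the RGS4 and RGS5 windows held none. The RGS4 and RGS5 windows overlap the ends of the gene spans given above, and other starts of these genes were not examined. Of 105 members 87 had a promoter in the RefSeq table, and 24 of these (27.6%) held the core, against 21.2% of 35116 promoters. The full element TGACGTCA, which contains the core, was in 3 members, GNAO1, GNG7 and GPR3, and in 1.65% of all promoters. None of the 12 members past 2-fold with a promoter held the full element, and 2 held the core. The TATA letters TATAAA, also read on either strand, were in 3 of 87 members (3.45%) and in 10.7% of all promoters. A match is a description of the letters only.

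The 5 adenylyl cyclase genes, whose products make cyclic AMP, lay within 2-fold and summed to 63.0 FPKM in the parental line and 63.4 FPKM in the resistant line. ADCY3 was the most abundant, at 27.4 and 27.7 FPKM. ADCY6, which G alpha i inhibits, had 12.3 and 14.1 FPKM (log2 ratio 0.18) in its main row. It was the only member past 2-fold in other rows of its name alone: of its 4 rows without a strand, 2 passed, the larger with 1.05 and 3.99 FPKM. ADCY1 had 4.46 and 5.43 FPKM (0.23) in its main row, but its 3 other rows, without a strand, were lower and summed to 8.35 and 4.94 FPKM. In their main rows, cyclase transcripts thus showed no shift of the kind seen among the RGS genes.

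Of 11 phosphodiesterase genes 2 were lower and none higher. PDE3B, a cyclic AMP phosphodiesterase that cyclic GMP inhibits, lies at chr11:14643723-14872044 and had 86.1 FPKM in the parental line and 28.2 FPKM in the resistant line, 3.05-fold lower (log2 ratio -1.58). PDE4B, a phosphodiesterase specific for cyclic AMP at chr1:65792514-66374579, had 4.90 and 1.29 FPKM (-1.36), which was -0.65 with a pseudocount of 5. The related PDE4D went the other way within the limit, at 3.35 and 7.08 FPKM (0.89), although its other 2 rows were lower in resistant cells. PDE4A had 7.65 and 10.3 FPKM (0.39). The PDE4 genes therefore did not move together. PDE6B, known from photoreceptors, had 8.82 and 16.4 FPKM (0.83). All 5 of its rows were higher, but the other 4 reached at most 1.01 and 1.96 FPKM. None of those 4 was placed on the gene's own strand. PDE5A, which breaks down cyclic GMP, had 42.7 and 32.5 FPKM (-0.38), and PDE7A 23.9 and 19.5 FPKM (-0.28). PDE3A had the highest listed value of all members, 1514 and 1405 FPKM, but only from a row without a strand, which can be a short piece with a very high FPKM, so its rank among the phosphodiesterases is uncertain. Without it the phosphodiesterases summed to 196 FPKM in the parental line and 133 FPKM in the resistant line, a ratio of 0.677. PDE3B, at 86.1 and 28.2 FPKM, is in these sums and makes up most of the gap between them. The median log2 ratio of all 11 genes was -0.11.

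Among the 6 protein kinase A subunit genes PRKAR2B was lower, and 5 of 6 had log2 ratios below 0, with a median of -0.21. The median of all genes, -0.04, was itself below 0, and PRKAR2A (-0.03) lay above it. PRKAR2B, the type II beta regulatory subunit, lies at chr7:107044649-107161811 and had 57.6 FPKM in the parental line and 22.9 FPKM in the resistant line, 2.52-fold lower (log2 ratio -1.30). Its share of the summed regulatory FPKM, taken from main rows, went from 31.8% to 16.6%. PRKAR1A, the type I alpha subunit and the most abundant, had 68.2 and 56.7 FPKM (-0.26), PRKAR2A 39.9 and 39.0 FPKM (-0.03) and PRKAR1B 15.2 and 19.1 FPKM (0.31). In their main rows the type II genes summed to 97.5 and 61.9 FPKM and the type I genes to 83.4 and 75.8 FPKM. By these rows the type II sum was the higher in parental cells and the lower in resistant cells. Rows without a strand were left out: another PRKAR2A row had 16.2 and 15.95 FPKM, and another PRKAR1B row 1.39 and 2.11 FPKM. Adding them would leave the type I and type II sums almost equal in resistant cells, so a change of order is not established. PRKACA, the main catalytic subunit, had 39.7 and 34.0 FPKM (-0.22), and both catalytic genes together had 48.4 and 41.5 FPKM in their main rows. Another PRKACA row, without a strand, had 20.5 and 10.2 FPKM (-0.94) and is not in that sum.

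Of 13 A-kinase anchors 2 were lower and 9 had log2 ratios below 0, with a median of -0.11 against -0.04 for all genes. AKAP6, which anchors protein kinase A at the nuclear envelope of muscle and nerve cells, lies at chr14:32329273-32837681 and had 22.9 FPKM in the parental line and 8.35 FPKM in the resistant line (log2 ratio -1.35). All 14 rows of AKAP6 were lower in the resistant library, 12 of them without a strand, and 8 of the 13 other rows passed 2-fold. Only the main row was placed on the gene's own strand, and all 14 rows come from the same 2 libraries. AKAP13, an anchor that is also a guanine nucleotide exchange factor, lies at chr15:85380571-85749358 and had 17.3 and 6.59 FPKM (-1.27), or -0.94 with a pseudocount of 5. AKAP12, a scaffold at the plasma membrane, stood just inside the limit at 7.01 and 3.04 FPKM (-0.99). The most abundant anchors, AKAP11 with 62.5 and 57.3 FPKM and the mitochondrial AKAP1 with 47.5 and 44.2 FPKM, had log2 ratios of -0.12 and -0.10. AKAP8, AKAP8L and AKAP9 were slightly higher, with log2 ratios from 0.21 to 0.28. Summed AKAP levels were 266 FPKM in the parental line and 236 FPKM in the resistant line.

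**Figure D5:**
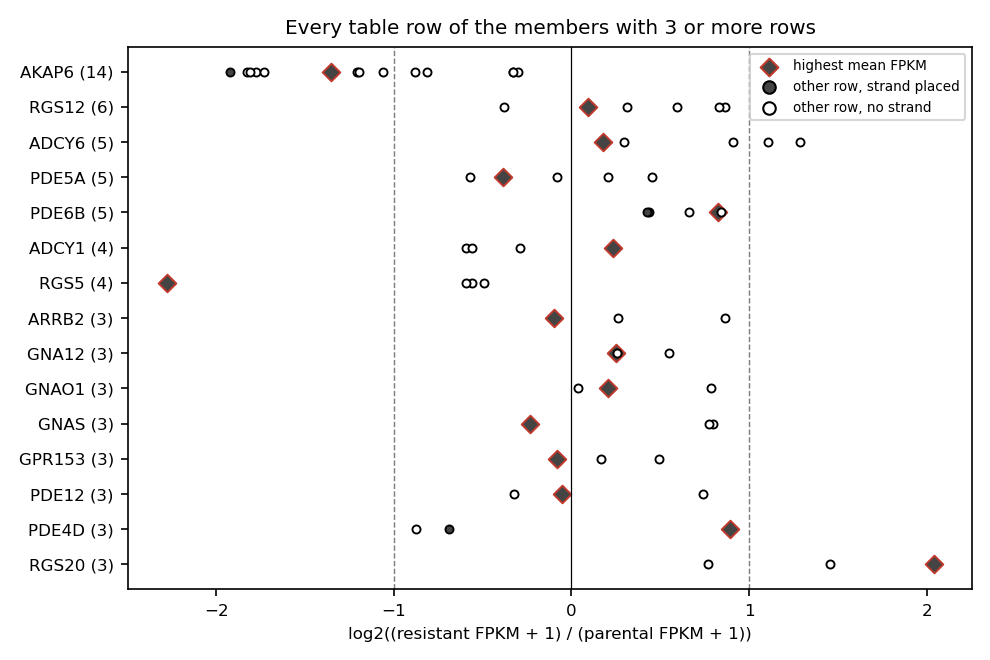
log2 ratio of every table row of the members with 3 or more rows, the number of rows in brackets. Diamonds are the rows that stand for the gene, filled circles other rows placed on a strand and open circles rows without one; all 14 AKAP6 rows lie below 0, while PDE4D, ADCY1 and PDE5A have rows on both sides.

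Of the remaining 8 members, whose names match but whose products have other roles, 7 were compared and none passed. GNB2L1, which encodes the ribosomal scaffold RACK1, had 1206 and 1116 FPKM (log2 ratio -0.11). GPRIN1, a partner of G alpha subunits in neurites, had 45.8 and 49.3 FPKM (0.11), and GPRASP2 15.3 and 11.8 FPKM (-0.35).

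Genes of the same pathway under other names were taken from lists of known receptors, regulators and targets. Of 109 other G protein-coupled receptors 28 had a row and 27 were compared, with 9 higher, 1 lower and a median log2 ratio of 0.29. CXCR4, the chemokine receptor, had 1.64 and 7.07 FPKM (1.61), S1PR1, a sphingosine phosphate receptor, 0.121 and 3.91 FPKM (2.13), and P2RY1, an ADP receptor, 3.10 and 9.0 FPKM (1.29). F2RL1, a protease-activated receptor, had 1.21 and 4.50 FPKM (1.32), LPAR1, a lysophosphatidic acid receptor, 0.528 and 2.58 FPKM (1.23), and CHRM3, a muscarinic receptor, 5.82 and 13.1 FPKM (1.05). CALCRL, PTGER4 and HTR1B, receptors for adrenomedullin, prostaglandin and serotonin, were listed at 0 for the parental line and reached 3.74, 2.68 and 1.40 FPKM in the resistant line. Most of these receptors were low in both libraries, and several entered the comparison only through the resistant library, where they had to be higher. With a pseudocount of 5 none of the 27 was higher by the rule. NTSR1, the neurotensin receptor, had 12.0 and 2.18 FPKM (-2.04) in a row without a strand. ADRA2C, an adrenergic receptor coupled to inhibitory G proteins, was the most abundant, at 51.8 and 53.4 FPKM. Among 10 adhesion receptors compared, ADGRB3 was higher, at 0.327 and 1.95 FPKM (1.15), and none was lower. ADGRB3 too entered only through the resistant library, and its log2 ratio was 0.38 with a pseudocount of 5.

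Of 21 compared partners and other regulators of G alpha subunits, 3 were higher, 1 was lower and the median was -0.04. PLCB4, a phospholipase C, had 0.741 and 4.17 FPKM (log2 ratio 1.57), and the calcium channels ITPR3 and ITPR2 had 5.38 and 17.8 FPKM (1.56) and 1.95 and 6.94 FPKM (1.43). Their relatives did not follow: PLCB1 had 13.8 and 7.83 FPKM (-0.74), PLCB3 62.5 and 63.0 FPKM (0.01) and ITPR1 4.48 and 3.87 FPKM (-0.17). Of the higher genes, ITPR3 alone passed with a pseudocount of 5, at 1.14. PDCL, a chaperone partner of beta and gamma subunits, had 53.2 and 20.6 FPKM (-1.33). CCDC88A, a scaffold that binds inhibitory alpha subunits, was the most abundant of the list at 99.8 and 80.0 FPKM (-0.32).

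Downstream of cyclic AMP, 9 of 18 effectors and kinase inhibitors were compared, and RAPGEF4, an exchange factor that cyclic AMP activates, was lower at 3.93 and 0.870 FPKM (log2 ratio -1.40, and -0.61 with a pseudocount of 5). None of 11 CREB factors and coactivators passed, and CREB1 had 15.7 FPKM in both libraries. Among 16 genes known as targets of cyclic AMP signalling the median was -0.00, with SCG2, a secretory granule protein, lower at 109 and 20.1 FPKM (-2.38) and the nuclear receptor NR4A3 higher at 3.56 and 8.17 FPKM (1.01). NR4A3 stood at 0.62 with a pseudocount of 5, and no target gene was higher by the rule when the libraries were scaled to an equal sum. EGR1, an immediate early gene, had 150 and 81.6 FPKM (-0.87). Of 5 compared genes of the cyclic GMP branch, GUCY1B3, the beta subunit of soluble guanylyl cyclase, was lower at 18.1 and 7.34 FPKM (-1.20), or -0.91 with a pseudocount of 5. NOS3, a nitric oxide synthase, had 63.3 and 54.9 FPKM (-0.20). As lists, the target genes and the CREB factors did not move in 1 direction.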

How the data were processed

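The authors deposited 1 table of FPKM values per locus, with a column for each of 2 libraries, per the file headers. Per the submitters' processing notes, the build was hg38 and TopHat2 was used (version not stated there). Which program and annotation gave the FPKM is not given in the sources used here. The columns were matched through the sample descriptions, and 0 were left unmatched. Of 19217 rows, 2919 had no gene name and 23 a name turned into a date, and these were left out. The row with the highest mean FPKM stood for a name. Strand was inferred from row order against GENCODE release 29, and rows without a strand stood for 405 genes and 4 members. A gene entered the comparison at 1 FPKM or more in at least 1 library, with log2((resistant + 1)/(parental + 1)), and a 2-fold limit of size in place of a test. Named in full were RGS4, every member past 2-fold, the most abundant member of each role, and members past 2-fold in another row only; from the pathway lists, genes past 2-fold and some of the most abundant. Other members, and neighbouring genes, were named after their values were seen. Some members are not reported by name here. Members and lists were chosen with earlier results of these data known. Depth is unknown, as the table holds no counts. Among 7591 low rows, those between 0 and 5 FPKM in each library, 52.9% had a ratio equal to 0.996 times one of whole numbers no larger than 20, within 2e-05, and of 20 members examined 6 did. The alternatives were pseudocounts of 0.1 and 5 FPKM, no filter and a filter of 5 FPKM, other scalings, summed rows, rows placed on a strand and limits of 1.5-fold and 4-fold. The procedure was tested on simulated data made from genes with a mean of at least 5 FPKM. That checked the calculation only, not scarcer genes or the variation between libraries. Protein sequences were not used here. The tools were pandas 2.3.3, NumPy 2.4.6 and matplotlib 3.10.9 under Python 3.11.15.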

Additional observations from a re-analysis of the deposited data

How the results depend on the processing

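With a pseudocount of 0.1 FPKM 8 members were higher and 10 lower, against 4.95% and 3.85% of all genes, and with 5 FPKM 2 were higher and 5 lower, against 142 and 136 of the 12405 genes; the latter lost GNAL, GPR158, GPR160, AKAP13, GPR61, PDE4B and RGS2. A 4-fold limit left 2 higher, RGS20 and GPR63, and 2 lower, RGS4 and RGS5, against 0.613% and 0.484% of all genes, and a 1.5-fold limit gave 11 and 14, against 7.59% and 6.59%. Scaling to an equal FPKM sum moved the median of all genes from -0.04 to -0.12. It gave 4 higher and 11 lower members, against 2.91% and 3.13% of all genes. There GPR158 was no longer past the limit, and AKAP12 and GPR75 were. AKAP6, GPR63, PDE3B, PRKAR2B, RGS20, RGS4 and RGS5 were past 2-fold under all 8 alternatives that left the limit unchanged, and no member past 2-fold changed direction under any of them. The median of the members lay between -0.15 and -0.03 throughout. No replicate could be left out, and no paired analysis was possible because each group has 1 library. Differences among genes of low level depend most on the pseudocount, which also took AKAP13, GNAL and GUCY1B3 inside the limit, and the reads behind all values are unknown. RNA levels say nothing of protein or of cyclic AMP itself, neither of which was measured here.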
